A study of Mus musculus with 6 samples.

Results

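The genes examined here are 5 epithelial keratins, Krt7, Krt8, Krt18, Krt19 and Krt23, and 4 cell surface proteins, Muc1, Epcam, Cd44 and Tspan8, which are used as markers of acinar-to-ductal metaplasia. They were chosen by name, and all 9 were found by identifier among the 55414 genes of the deposited tables. All 9 also passed the filter on low counts, which left 13115 genes for testing. Their levels were compared between adult mouse pancreatic acinar cells with and without intact Trip12, which encodes a ubiquitin ligase. The 3 control preparations were Pdx1Cre;Trip12+/+ and the 3 knockout preparations were Pdx1Cre;Trip12fl/fl, so that both groups carried the Pdx1Cre transgene, and all were untreated. The Pdx1 promoter is active in the progenitors of the whole pancreatic epithelium, so Cre acts in the acinar, duct and endocrine lineages. The age in weeks, the sex and the way the cells were isolated are not given in the sources used here.

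Keratins are the intermediate filament proteins of epithelia. They assemble as pairs of a type I and a type II protein, and Krt8 (type II) with Krt18 (type I) forms the basic pair of simple epithelia, including pancreatic acinar cells. Krt7 (type II) and Krt19 (type I) are typical of pancreatic ducts. In acinar-to-ductal metaplasia, which accompanies pancreatitis and precedes pancreatic tumours in mouse models, acinar cells lose enzyme expression and take on duct-like features, including duct keratins and surface proteins.

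The libraries held 31019500 to 34041901 gene counts each. The 12 acinar markers, which include the enzymes Cpa1, Pnlip and Cela2a, had counts in every library and took 43.8% to 46.0% of gene counts in control and 41.1% to 43.9% in knockout. Trip12 had a mean of 25.9 CPM ± 3.36 (SD, n = 3) among controls and 14.0 CPM ± 0.916 among knockouts (adjusted p 0.0256 in the edgeR test used throughout). CPM is the count relative to a library's size after TMM scaling, which adjusts for library composition. Counts over the whole gene do not show which exons an allele lacks. Xist, which is transcribed from the inactive X chromosome of females, gave 2118 and 2440 counts for control replicates 2 and 3, beside 3 to 5 counts for each of the other 4 libraries. No knockout library was high in Xist, so genotype and sex, as read from Xist, cannot be fully told apart in these comparisons. Control replicate 1 also stood above the other controls in leukocyte transcripts and in stromal and endothelial transcripts. The 15 leukocyte markers had counts in every library. Summed, they stood at 138, 33.0 and 24.2 CPM across controls 1 to 3, and at 95.8, 21.9 and 75.4 CPM across knockouts 1 to 3. The 13 stromal and endothelial markers summed to 175, 42.7 and 63.3 CPM across controls 1 to 3, and to 209, 56.7 and 132 CPM across knockouts 1 to 3.

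None of the 9 genes passed the test in the comparison without a replicate block. By the quasi-likelihood test of edgeR, with p-values adjusted over all tested genes after Benjamini and Hochberg, 0 of 9 came under the threshold of 0.05, against 0.945% of all tested genes (0.465% higher and 0.48% lower in knockout). Before adjustment 5 of 9 had a p under 0.05, namely Krt7, Krt19, Krt23, Muc1 and Epcam, against 16.7% of all tested genes. DESeq2's Wald test called 2 of the 9, Krt19 and Muc1, against 594 of all 13115 tested genes. The limma-voom fit called 0 of the 9, against 84 of all 13115. The labels do not say whether libraries with the same number belong together. Deviations from the group means correlated at 0.63, 0.455 and 0.285 in same-numbered pairs and at 0.21 or less in the others. A block for replicate number therefore rests on a pairing read from these same data. With that block the edgeR test called the 5 genes that had an unadjusted p under 0.05, 2 higher and 3 lower in knockout. In that blocked test 5.98% of all genes were called, 3.39% higher and 2.58% lower. Of the 5, Krt19 and Muc1 were called without pair 1, none was called without pair 2 and Krt7 and Krt19 were called without pair 3. The median log2 fold change of the 9 genes was -0.53, beside 0.02 over all tested genes.

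**Figure D1:**
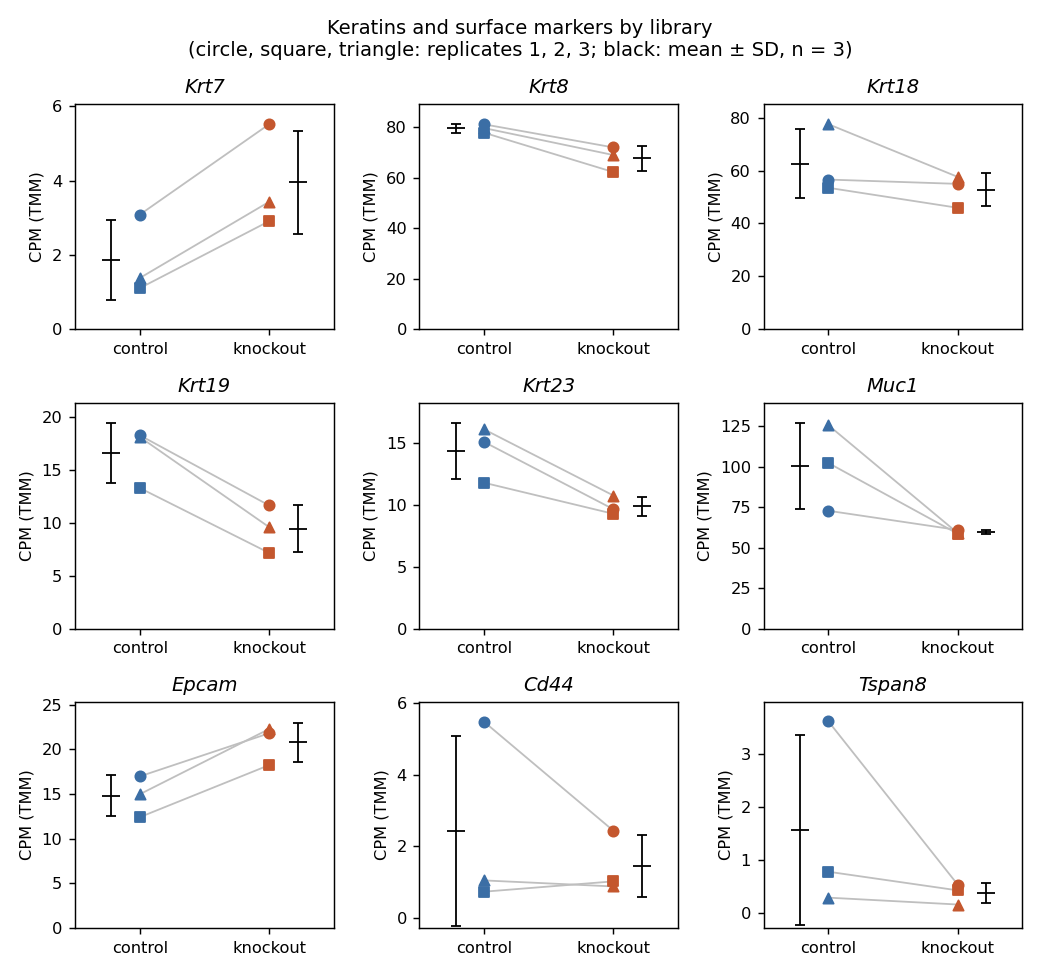
Level of each gene in each library, in CPM after TMM scaling, with control in blue, knockout in orange, grey lines joining libraries with the same replicate number and black bars for the mean ± SD of 3 libraries. The 3 knockout points for Epcam lie above all 3 control points, and those for Krt8, Krt19, Krt23 and Muc1 lie below.

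Krt8 and Krt18, the basic pair, were the most abundant keratins, and neither was called. Krt8 (ENSMUSG00000049382) stood at 81.1, 77.8 and 79.6 CPM across controls 1 to 3, and at 72.0, 62.2 and 69.0 CPM across knockouts 1 to 3. The groups did not overlap, with means of 79.5 CPM ± 1.67 and 67.7 CPM ± 4.99 (SD, n = 3). Its log2 fold change was -0.23 (SE 0.13), and the edgeR test gave an adjusted p of 0.431. Krt18 (ENSMUSG00000023043) stood at 56.6, 53.5 and 77.5 CPM across controls 1 to 3, and at 55.0, 45.9 and 57.6 CPM across knockouts 1 to 3. Its groups overlapped, with control replicate 3 the highest library, and the log2 fold change was -0.24 (SE 0.18; adjusted p 0.553 in the edgeR test). The Krt18 value was -0.06 without control replicate 3 and -0.10 with a covariate for Xist. Scaling by library totals turned the direction of both genes, to 0.18 each.

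The ratio of the pair overlapped between the groups. The Krt8 count was 1.43, 1.45 and 1.03 times the Krt18 count across controls 1 to 3, and 1.31, 1.35 and 1.20 times across knockouts 1 to 3. On the log2 scale this ratio averaged 0.37 ± 0.28 (SD, n = 3) in control and 0.36 ± 0.09 in knockout (exact two-sided permutation test, p = 1.0). The absolute ratio depends on the counting. Krt8 overlaps the non-coding gene Gm36026 on the opposite strand in the GENCODE M21 annotation, and 12.9% to 17.5% of the Krt8 counts summed over the strand columns were missing from the unstranded count. With both strand columns summed, Krt8 had a mean of 94.4 CPM ± 3.07 (SD, n = 3) among controls and of 78.1 CPM ± 5.71 among knockouts. Krt7 lost at most 1.92% in this way, and the other 7 genes lost none. Strand cannot assign the reads that Krt7 or Krt8 shares with the non-coding gene annotated opposite it, since neither strand column held nearly all counts. Those shared reads stay out of the unstranded counts that were tested. Cd44 and Tspan8 also have a non-coding gene annotated opposite them, but lost no counts in this way.

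Krt7 and Krt19, the duct keratins, moved in opposite directions in the blocked test. Krt7 (ENSMUSG00000023039) stood at 3.08, 1.11 and 1.38 CPM across controls 1 to 3, and at 5.52, 2.91 and 3.43 CPM across knockouts 1 to 3, from 27 to 98 counts per control library and 102 to 206 per knockout library. Every knockout library exceeded the control library of the same number, but the groups overlapped because control replicate 1 lay above knockout replicate 2. The means were 1.86 CPM ± 1.07 and 3.95 CPM ± 1.38 (SD, n = 3). The log2 fold change was 1.08 (SE 0.42; adjusted p 0.259 in the edgeR test), and Krt7 rose by 1.15 (SE 0.24; adjusted p 0.0171) with the replicate block. The size depended on the control libraries. It was 1.64 without control replicate 1 (adjusted p 0.0462 in the edgeR test) and 0.36 with a covariate for Xist (adjusted p 0.810), which leaves control replicate 1 as the only control without Xist.

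Krt19 (ENSMUSG00000020911) stood at 18.3, 13.3 and 18.1 CPM across controls 1 to 3, and at 11.6, 7.16 and 9.59 CPM across knockouts 1 to 3. All 3 knockout libraries lay below all 3 controls, and the control with little Xist was the highest of all. The means were 16.6 CPM ± 2.83 and 9.47 CPM ± 2.25 (SD, n = 3). The log2 fold change was -0.81 (SE 0.20; adjusted p 0.107 in the edgeR test), and with the replicate block Krt19 fell by 0.82 on the log2 scale (SE 0.14; adjusted p 0.00645). With library totals the log2 fold change was -0.40 (adjusted p 0.307 in the edgeR test), since that scaling raised the median of all genes from 0.02 to 0.43.

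Krt23 (ENSMUSG00000006777), another type I keratin, stood at 15.1, 11.8 and 16.1 CPM across controls 1 to 3, and at 9.64, 9.27 and 10.7 CPM across knockouts 1 to 3. The knockout libraries were again the lowest 3, and they varied less among themselves than the controls. The means were 14.3 CPM ± 2.25 and 9.88 CPM ± 0.768 (SD, n = 3), with a log2 fold change of -0.53 (SE 0.15; adjusted p 0.136 in the edgeR test). With the replicate block Krt23 fell by 0.53 on the log2 scale (SE 0.14; adjusted p 0.0472). Library totals brought its log2 fold change to -0.13 (adjusted p 0.655 in the edgeR test).

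Ratios between keratins within a library do not depend on scaling between libraries. The Krt7 count was 0.169, 0.0833 and 0.0762 of the Krt19 count across controls 1 to 3, and 0.474, 0.406 and 0.358 across knockouts 1 to 3. The 2 groups did not overlap, and the ratio of their geometric means was 4.01. On the log2 scale the difference was 2.00, with means of -3.29 ± 0.63 and -1.29 ± 0.20 (SD, n = 3), and all 3 same-numbered pairs had the higher ratio in knockout. Against Krt8, its fellow type II keratin, Krt7 averaged -5.57 ± 0.75 and -4.15 ± 0.39 on the log2 scale, a difference of 1.42. Against Krt18, its fellow type I keratin, Krt19 averaged -1.91 ± 0.25 and -2.50 ± 0.23, a difference of -0.59. Each of these 3 ratios had p = 0.1 in the exact two-sided permutation test, the smallest that 3 against 3 allows, and 0.125 after Benjamini-Hochberg adjustment over the 5 ratios computed.

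**Figure D2:**
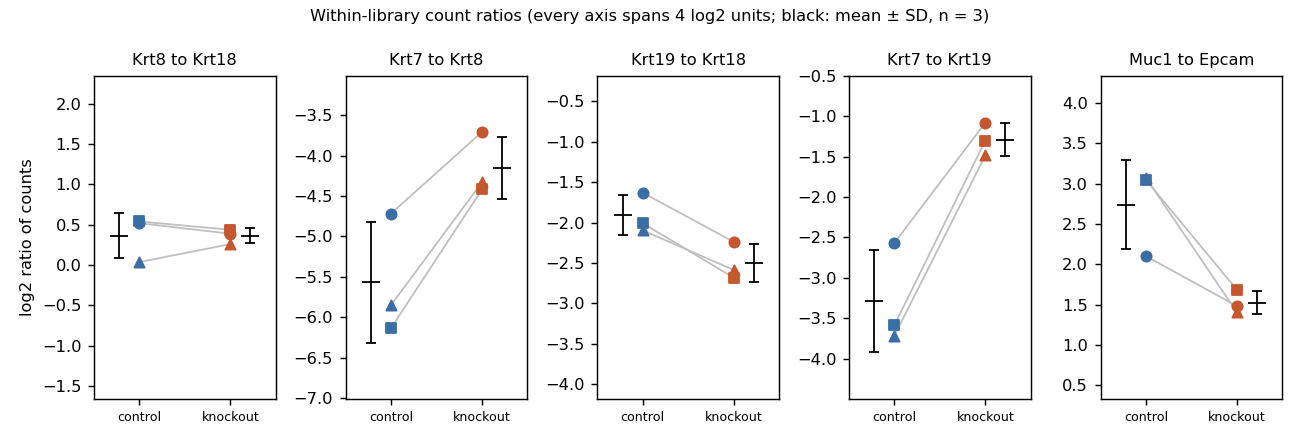
Log2 ratio of counts within each library for 5 pairs of genes, with control in blue, knockout in orange, grey lines joining same-numbered libraries and black bars for the mean ± SD of 3 libraries; every axis spans the same range. The Krt7 to Krt19 ratio separated the groups by 2.00 on average, while the Krt8 to Krt18 ratio overlapped between them.

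Among the surface proteins, Muc1 and Epcam also differed in opposite directions. Muc1 (ENSMUSG00000042784), a membrane-bound mucin of the apical surface, stood at 72.7, 102 and 126 CPM across controls 1 to 3, and at 60.9, 58.5 and 58.9 CPM across knockouts 1 to 3. The knockout libraries were nearly level, while the controls spread widely and control replicate 1 lay closest to the knockouts. The means were 100.2 CPM ± 26.5 and 59.4 CPM ± 1.26 (SD, n = 3). The log2 fold change was -0.75 (SE 0.20; adjusted p 0.123 in the edgeR test), and with the replicate block Muc1 fell by 0.72 on the log2 scale (SE 0.17; adjusted p 0.0355). The size moved with single controls and with Xist. It was -0.96 without control replicate 1 (adjusted p 0.0132 in the edgeR test) and -0.29 with the Xist covariate (adjusted p 0.611). With library totals it was -0.31 (adjusted p 0.172 in the edgeR test).

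Epcam (ENSMUSG00000045394), a homophilic adhesion molecule of epithelia, stood at 17.0, 12.4 and 15.0 CPM across controls 1 to 3, and at 21.8, 18.2 and 22.3 CPM across knockouts 1 to 3. All 3 knockout libraries lay above all 3 controls, with means of 14.8 CPM ± 2.29 and 20.8 CPM ± 2.21 (SD, n = 3). The log2 fold change was 0.49 (SE 0.15; adjusted p 0.169 in the edgeR test), and with the replicate block Epcam rose by 0.50 (SE 0.13; adjusted p 0.0492), just inside the threshold. With library totals it was 0.89 (adjusted p 0.0441 in the edgeR test), and with the Xist covariate 0.29 (adjusted p 0.641). The Muc1 count was 4.29, 8.25 and 8.39 times the Epcam count in control and 2.79, 3.21 and 2.65 times in knockout. The groups did not overlap in this ratio, which differed by -1.21 on the log2 scale (exact two-sided permutation test, p = 0.1; 0.125 adjusted over the 5 ratios).

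The 2 remaining surface proteins were scarce and uneven between libraries. Cd44 (ENSMUSG00000005087), the hyaluronan receptor, is carried by leukocytes as well as by epithelial cells. It stood at 5.48, 0.739 and 1.05 CPM across controls 1 to 3, and at 2.44, 1.03 and 0.884 CPM across knockouts 1 to 3, highest in replicate 1 of each group. The log2 fold change of -0.75 (SE 0.84; adjusted p 0.730 in the edgeR test) turned to 0.67 without control replicate 1 (adjusted p 0.476) and was -1.91 with the Xist covariate (adjusted p 0.296). The leukocyte gene Ptprc was likewise highest in replicate 1 of each group, at 29.9 CPM in control and 12.1 CPM in knockout, beside 1.31 to 2.59 CPM in the other 4 libraries. Whether leukocytes gave the Cd44 counts was not tested, and in bulk samples fewer cells of a type and less RNA per cell cannot be told apart.

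Tspan8 (ENSMUSG00000034127), a tetraspanin that gathers other membrane proteins, stood at 3.62, 0.780 and 0.291 CPM across controls 1 to 3, and at 0.535, 0.428 and 0.161 CPM across knockouts 1 to 3. These levels rest on 115, 19 and 8 counts across the controls and on 20, 15 and 6 across the knockouts. Control replicate 1 held most of these counts. In CPM control replicate 2 also lay above all 3 knockouts, while control replicate 3 lay within their range. The log2 fold change was -2.06 (SE 0.93; adjusted p 0.324 in the edgeR test) and -0.53 without control replicate 1 (adjusted p 0.687). With the Xist covariate it was -3.26 (adjusted p 0.187 in the edgeR test). With the replicate block it was -1.66 (SE 0.51; adjusted p 0.0814).

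**Figure D3:**
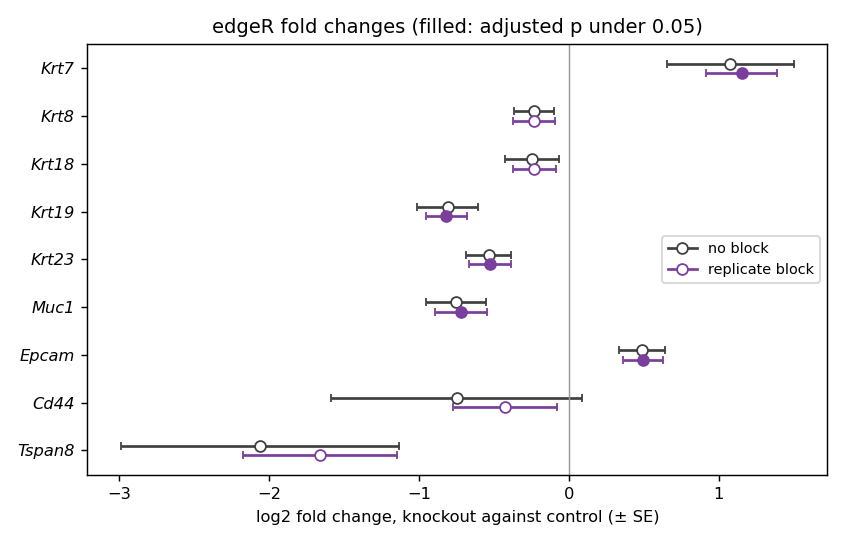
Log2 fold change of each gene, knockout against control, ± SE from edgeR's quasi-likelihood fits without a block (grey) and with the replicate block (purple), with filled points for an adjusted p under 0.05. Krt7, Krt19, Krt23, Muc1 and Epcam are filled with the block and open without it, and their estimates hardly move between the fits.

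Counting both directions, 5 of 9 genes did not overlap between the groups, 1 higher and 4 lower in knockout, against 22.9% of all tested genes, 11.9% higher and 11% lower. In all 3 same-numbered pairs, 2 genes were higher and 6 were lower in knockout, against 45% of all tested genes in either direction, 24.2% and 20.7% in each. With the Xist covariate the adjusted p of the 9 genes ranged from 0.187 to 0.917 in the edgeR test, and none was called. Among the 4 libraries with little Xist, control replicate 1 lay above all 3 knockouts for Krt19, Krt23 and Muc1, below all 3 for Epcam and within their range for Krt7, at the levels given above.

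Levels were compared between genes as CPM per kilobase of the main annotated transcript, a scale that depends on that length. In control the order was Muc1 at 44.7 ± 11.8 (SD, n = 3), Krt18 at 43.5 ± 9.09 and Krt8 at 40.6 ± 0.851, whose ranges overlapped. Krt19 at 10.5 ± 1.80, Krt23 at 9.15 ± 1.44 and Epcam at 7.24 ± 1.12 followed, each overlapping the next. Tspan8 at 1.13 ± 1.30, Krt7 at 0.454 ± 0.262 and Cd44 at 0.432 ± 0.472 came last and also overlapped. In knockout Krt18 at 36.8 ± 4.26 and Krt8 at 34.6 ± 2.55 overlapped, and both lay above Muc1 at 26.5 ± 0.561. Epcam at 10.2 ± 1.08 stood next, clear of Krt23 at 6.32 ± 0.491 and Krt19 at 6.01 ± 1.43. Krt7 at 0.965 ± 0.337 lay above Tspan8 at 0.271 ± 0.140 and Cd44 at 0.258 ± 0.153. With its strand columns summed, Krt8 came to 48.2 ± 1.57 in control and 39.9 ± 2.91 in knockout, the highest mean of the 9 in both groups.

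The tables held 55 keratin genes, of which 37 had no count in any library and 8 were tested. The 3 tested keratins outside the list were Krt10, Krt20 and Krt80. Krt20, a marker of differentiated gastrointestinal epithelium, had 9 to 24 counts per control library and 12 to 24 per knockout library, and Krt10, an epidermal type I keratin, had 14 to 25 and 21 to 26. Neither was called with or without the block. Krt80 (ENSMUSG00000037185), a type II keratin, received 28, 10 and 10 counts across controls 1 to 3, and 137, 79 and 218 across knockouts 1 to 3. Its level was 0.881, 0.410 and 0.363 CPM across controls 1 to 3 against 3.67, 2.25 and 5.84 CPM across knockouts 1 to 3, so that every knockout library exceeded every control. Krt80 rose by 2.81 on the log2 scale (SE 0.47; adjusted p 0.0365 in the edgeR test; 0.00224 with the replicate block) and was the only keratin called without the block. The call was lost under 8 of 21 alternatives, with adjusted p of 0.132 to 0.201 in the 4 that left out control replicate 2 or 3 or knockout replicate 1 or 3 and 0.292 with the Xist covariate (log2 fold change 2.15). Its annotation overlaps Gm35853 and Mir1941, whose reads were not separated from it here. The remaining keratins had too few counts to be tested, and the copy Krt8-ps had 3 to 9 counts.

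**Figure D4:**
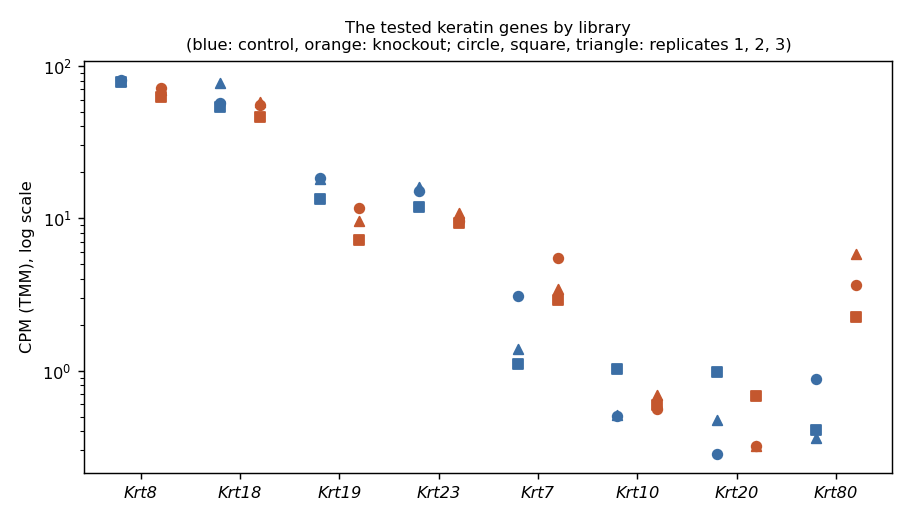
Level of the 8 tested keratin genes in each library, in CPM after TMM scaling on a log axis, with control in blue, knockout in orange and 1 marker shape per replicate number. Krt8 and Krt18 lie highest in both groups, and Krt80 shows the widest gap between the groups.

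The 250 bases before the RefSeq start site are shown for 3 genes that the blocked test called, Krt7 and Epcam higher and Muc1 lower, to set a keratin beside the 2 surface proteins. The sequences come from RefSeq on build GRCm38.p6, while the submitters' processing notes name GRCm39 for the counts. Entries were found for 8 of the 9 genes, all but Krt19. Capitals mark 5 short motifs searched on both strands: the TATA box TATAAA, the GC box GGGCGG, the AP-1 site TGANTCA, the E-box CAGGTG and the CCAAT box CCAAT.
Krt7, chr15:101412153-101412402, plus strand: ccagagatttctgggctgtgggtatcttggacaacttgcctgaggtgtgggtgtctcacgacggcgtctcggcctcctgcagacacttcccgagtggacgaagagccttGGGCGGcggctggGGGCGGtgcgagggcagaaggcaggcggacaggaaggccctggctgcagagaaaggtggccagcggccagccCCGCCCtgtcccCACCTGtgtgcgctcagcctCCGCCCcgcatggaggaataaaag
Epcam, chr17:87635729-87635978, plus strand: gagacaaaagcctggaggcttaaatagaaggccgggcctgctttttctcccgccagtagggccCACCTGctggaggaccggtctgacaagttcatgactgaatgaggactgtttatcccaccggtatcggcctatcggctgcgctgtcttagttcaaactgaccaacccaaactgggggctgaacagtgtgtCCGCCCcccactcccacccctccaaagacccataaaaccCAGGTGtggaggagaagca
Muc1, chr3:89228806-89229055, plus strand: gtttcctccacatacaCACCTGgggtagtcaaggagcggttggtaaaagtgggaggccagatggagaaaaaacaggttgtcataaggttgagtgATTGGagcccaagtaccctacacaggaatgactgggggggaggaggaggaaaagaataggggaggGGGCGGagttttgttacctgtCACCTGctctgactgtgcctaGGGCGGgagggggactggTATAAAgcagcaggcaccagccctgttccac

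Krt7 had 4 GC boxes, at positions -141, -128, -56 and -24 from the start site, and 1 E-box at -44. Epcam had 1 GC box at -58 and E-boxes at -187 and -19. Muc1 was the only one of the 8 with a TATA box, at -31, and it also had GC boxes at -91 and -49, E-boxes at -234 and -70 and a CCAAT box at -156. No marked matches overlapped. The E-box letters were found in 6 of the 8 windows, namely in all 4 keratins and in Muc1 and Epcam, against 17.2% of 32817 windows of the same length over all RefSeq genes. The GC box was found in 3 of 8 against 32.7%, the TATA box in 1 against 12.4%, the CCAAT box in 1 against 33.8% and the AP-1 site in none against 6.75%. The 8 windows held 52.4% to 66% G and C, beside a median of 52.4% over all 32817 windows. The shares over all windows were not matched for this composition. A match is only a run of letters and was not examined for binding.

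The genes that work with keratins, and those of other filaments, were mostly not called. Of 19 desmosome, plakin and filament genes 17 were tested. Desmosome and plakin proteins anchor and link keratin filaments, and the list also holds genes of other intermediate filaments. By the edgeR test without the block 0 were called, with 5 higher and 2 lower at an unadjusted p under 0.05. Under the replicate block 3 rose and 1 fell. Over all tested genes 16.7% had an unadjusted p under 0.05, and 3.39% rose and 2.58% fell under the block. These shares also apply to the lists that follow. Fbf1, which encodes a keratin-binding protein, had means of 4.23 CPM ± 0.174 for control and 8.05 CPM ± 1.42 for knockout (SD, n = 3; adjusted p 0.0103 in the blocked edgeR test). The intermediate filament gene Nes averaged 20.9 CPM ± 2.25 and 30.7 CPM ± 1.20 (adjusted p 0.0316), and the plakin Evpl 0.455 CPM ± 0.287 and 1.55 CPM ± 0.644 (adjusted p 0.0265). The desmosomal plakophilin Pkp2 was the 1 that fell, from 9.95 CPM ± 1.95 to 6.01 CPM ± 0.0483 (adjusted p 0.0284). The desmosomal proteins Dsp and Jup had log2 fold changes of -0.24 and -0.03. The median over the 17 was 0.03, beside 0.02 over all tested genes.

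The partners of the surface proteins gave few calls. Of 16 genes for EpCAM partners and processing, 13 were tested and 0 were called by the edgeR test without the block, with 1 higher and 1 lower at an unadjusted p under 0.05. Under the block 2 rose, the claudin Cldn4 (adjusted p 0.0333) and St14, the protease matriptase (adjusted p 0.0457). St14 had means of 9.92 CPM ± 1.12 for control and 14.9 CPM ± 2.74 for knockout (SD, n = 3). Cldn7, the claudin that binds EpCAM, had a log2 fold change of 0.13 (adjusted p 0.765 in the edgeR test).

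Of 18 genes for CD44 ligands, linkers, processing and splicing, 14 were tested, 0 were called without the block and 2 were higher and 1 lower at an unadjusted p under 0.05 in the edgeR test. Under the block Spp1, which encodes the CD44 ligand osteopontin, and the membrane protease Mmp14 rose, and Rdx, which links CD44 to actin, fell. Spp1 had means of 62.2 CPM ± 5.84 for control and 131 CPM ± 46.1 for knockout (SD, n = 3; adjusted p 0.0178 in the blocked edgeR test). Esrp1 and Esrp2, the epithelial splicing factors that act on Cd44 transcripts, had log2 fold changes of -0.20 and 0.13, and the counts do not separate Cd44 isoforms. Of 25 other tetraspanins 23 were tested, 0 were called without the block, with 1 higher and 2 lower at an unadjusted p under 0.05. Under the block Tspan3 fell, from 16.2 CPM ± 2.20 to 10.2 CPM ± 0.424 (adjusted p 0.0176). Of 7 other membrane mucin symbols, 6 were in the tables and none passed the filter, with a summed level of 0.109 to 1.32 CPM in control and 0.0285 to 0.509 CPM in knockout.

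Other duct markers were compared with the duct keratins. Of 16 duct genes outside the list, all were tested, 0 were called by the edgeR test without the block, and 5 were higher and 2 lower at an unadjusted p under 0.05. Under the block 6 rose and 0 fell, namely Spp1, Ambp, Pkhd1, Bicc1, Cldn4 and Aqp1, of which Spp1 and Cldn4 also stand in the lists above. Ambp, a protease inhibitor precursor, had means of 5.13 CPM ± 1.15 for control and 16.3 CPM ± 6.24 for knockout (SD, n = 3; adjusted p 0.0174 in the blocked edgeR test). Pkhd1, a protein of the primary cilium, averaged 8.17 CPM ± 4.12 and 14.5 CPM ± 2.11 (adjusted p 0.0211). The transcription factor Sox9 had a log2 fold change of 0.06, and the chloride channel Cftr had -1.33 (adjusted p 0.220 in the edgeR test). The median of the 16 was 0.79, so that Krt7 and Epcam had the same sign as most of them and Krt19, Krt23 and Muc1 the opposite sign. Also above 0 lay 8 of 9 islet markers (median 0.73) and 12 of 13 stromal and endothelial markers (median 0.44). Leukocyte markers were nearly even, with 7 above 0 and 6 below (median 0.32). The part of these cell types in the duct marker values was not tested.

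**Figure D5:**
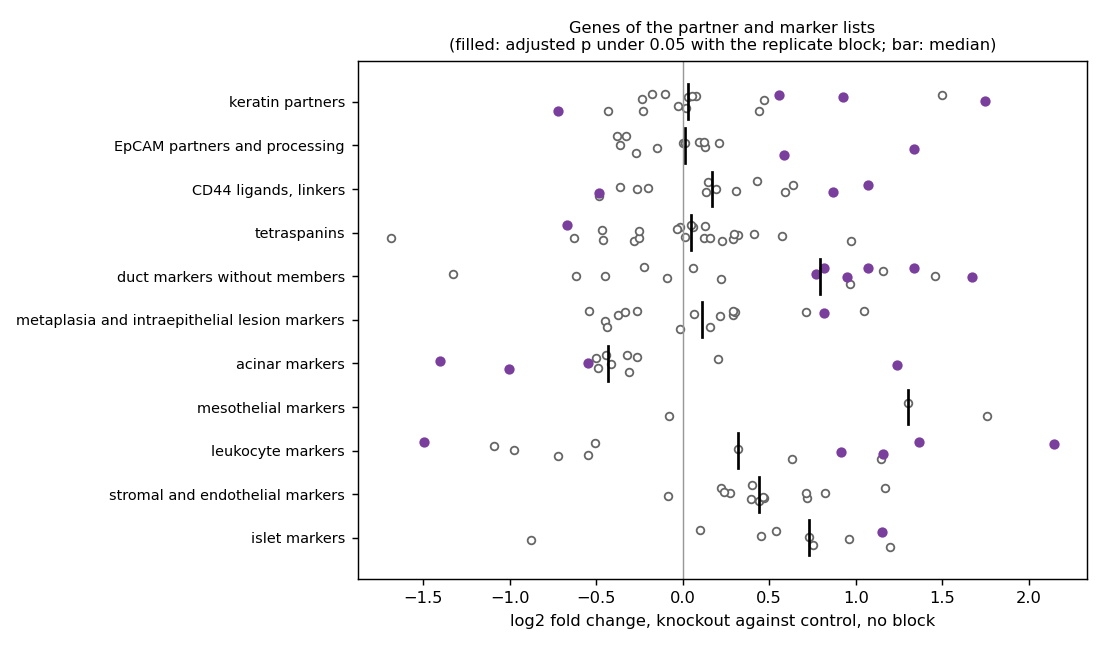
Log2 fold change without a block, knockout against control, of each tested gene in the partner and marker lists, with filled points for an adjusted p under 0.05 with the replicate block and a bar at each median. The duct markers outside the list centre on 0.79 and the keratin partners, which include genes of other filaments, on 0.03.

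Mesothelium, which lines the pancreas, also makes Krt7, Krt8, Krt18 and Krt19. Of its 8 markers 4 had counts in every library, while Msln, Upk1b, Lrrn4 and Wt1 were at 0 in at least 1 library. The 8 markers summed to 4.39 to 16.1 CPM in control and 3.14 to 13.6 CPM in knockout, mostly from Igfbp5. Krt7 itself stood at 1.11 to 3.08 CPM in control and 2.91 to 5.52 CPM in knockout. The 3 mesothelial markers that were tested had a median log2 fold change of 1.305, with 2 above 0 and 1 below. None of the 3 was called with or without the block, and 1 was higher at an unadjusted p under 0.05 in the edgeR test. The part of mesothelium in the keratin values was not tested. Among the 13 tested leukocyte markers, the macrophage genes Adgre1, C1qa, C1qb and C1qc rose in the blocked edgeR test. Islet markers, all 9 with counts in every library, summed to 358 to 471 CPM in control and 248 to 932 CPM in knockout. Of these 0 were called by the edgeR test without the block, with 2 higher and 0 lower at an unadjusted p under 0.05, and the prohormone convertase Pcsk2 rose with the block (adjusted p 0.0316). The 13 stromal and endothelial markers, all with counts in every library, summed to 42.7 to 175 CPM in control and 56.7 to 209 CPM in knockout, and 0 were called by the edgeR test with or without the block, with 0 at an unadjusted p under 0.05 without it.

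Genes with the most similar profiles were sought among 6371 other tested protein-coding genes of at least 5 CPM on average, by the root mean square difference of centred log2 CPM over the 6 libraries. The nearest to Krt7 were Fgfr3, at 0.180, Pkhd1 at 0.222 and Shank2 at 0.224. Muc1 was nearest to the chymotrypsin-like enzyme Ctrl, at 0.0672, then to Pkp2 and Fut8. Epcam was nearest to Map3k1, at 0.0282, Etl4 and the tight junction protein Tjp1. Krt19 was nearest to Gpc4, at 0.157, and Krt23 to Gna13, at 0.0576. Krt8 was nearest to Fam171a1, at 0.0260, and Krt18 to Plcb1, at 0.0246. Cd44 and Tspan8 had no close match, with their nearest, Bgn and Atp2a3, at 0.347 and 0.800. Such likeness over 6 libraries is a description of these samples.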

How the data were processed

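Poly-A RNA sequencing of 3 control and 3 Trip12 knockout preparations yielded 1 deposited table of raw counts per library, holding an unstranded count and a count for each strand orientation of every gene. The submitters' processing notes name STAR 2.7.10a and the build GRCm39; the annotation, and whether 1 count is a read or a pair, are not given in the sources used here. The layout is that of STAR gene counts, in which reads mapped to several places count to no gene. The 4 rows outside genes, with 21.6% to 28.4% of reads mapped to several places and 9.70% to 13.0% unmapped, stayed out of library sizes. Symbols and transcript lengths came from GENCODE M21 (GRCm38), in which 94.1% of identifiers, with at least 99.8% of counts, were found.

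Unstranded counts were tested with edgeR 4.0.16 in R 4.3.3 (filterByExpr, TMM, robust quasi-likelihood F test, Benjamini-Hochberg adjustment over all tested genes), with a threshold of 0.05. SE is the size of the log2 fold change divided by the square root of F. Alternatives used DESeq2 1.42.0, limma 3.58.1, other scalings, filters, strand columns, a covariate for at least 100 Xist counts and each library left out. The procedure was tested on simulated data. Ratios of counts were compared with exact permutation tests. No 2 libraries agreed within sampling noise (chi-square per degree of freedom of at least 26.3). The labels call the preparations biological replicates and do not say whether each came from its own animal. The tests treat each preparation as 1 independent sample, which could not be checked.

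Control and knockout preparations carry the same numbers, 1 to 3, in the labels, and what a number stands for is not given in the sources used here. Deviations from the group means correlated at 0.63, 0.455 and 0.285 in same-numbered pairs, so the numbers were taken to pair the samples, a reading that comes from the data. Differently numbered pairs lay between -0.496 and 0.21. The named genes are the 9 members, list genes called with or without the block, other keratins and the 3 nearest profiles of each member; a few list genes that were not called (Dsp, Jup, Cldn7, Esrp1, Esrp2, Sox9, Cftr, Ptprc, Klf4, Klf5, Dclk1) were added after their values were seen. The members and lists were chosen with earlier results of these data known. Muc4, Muc6 and Eppk1 were not analysed here, and the values of some list genes are not reported here.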

Additional observations from a re-analysis of the deposited data

How the results depend on the processing

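The number of the 9 genes called was 0 without the block and 5 with the replicate block. It was 1 with library totals (Epcam), 5 without a filter on low counts (Krt7, Krt19, Krt23, Muc1 and Tspan8), 2 with DESeq2 and, in the blocked fits without pairs 1, 2 and 3, which were chosen after seeing the data, 2, 0 and 3 (Krt7, Krt19 and Tspan8). Leaving out 1 library gave 0 to 2, with Krt7 and Muc1 called without control replicate 1. It stayed at 0 under the other 2 composition scalings, with abundant genes out of library sizes and with a minimum of 10 counts. It also stayed at 0 with limma-voom, either strand and the Xist covariate. The fit without a filter tested 25772 genes and that with a minimum of 10 counts 11110, beside 13115 in the main fit. Over all genes 124 were called (61 higher and 63 lower), 784 with the replicate block (396, 102 and 837 in it without pairs 1, 2 and 3), 1528 with library totals (1451 higher and 77 lower), 850 without a filter, 210 with a minimum of 10 counts per library, 594 with DESeq2, 21 with the Xist covariate and 20 to 461 without 1 library (461, 20 and 54 without control replicates 1, 2 and 3, 27, 88 and 24 without knockout replicates 1, 2 and 3). Direction turned for Krt8 (0.18) and Krt18 (0.18) with library totals and for Cd44 without control replicate 1 (0.67, in a range of -1.35 to 0.67 without 1 library) and in the blocked fit without pair 1 (0.0792). It also turned for the Krt8 to Krt18 ratio, whose difference of -0.0039 became 0.0208 with reverse-strand counts and lay between -0.168 and 0.0832 without 1 library. The other 4 ratios kept their direction under all 10 alternatives, and their sign-flip test over the 3 pairs gave p = 0.25, the smallest it allows in this exact test. Krt7, Krt19, Krt23, Muc1, Epcam and Tspan8 kept their direction in every fit that tested them. The causes were not tested, except that library totals raise the median of all genes. Depth limits Krt7, Cd44 and Tspan8, with as few as 27, 18 and 6 counts in a library.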

Other observations

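Markers of metaplasia and of intraepithelial lesions outside the 9 genes were mostly not called. Of 24 symbols 23 were in the tables and 16 were tested, 0 were called by edgeR's quasi-likelihood test without the block, and 0 were higher and 1 lower at an unadjusted p under 0.05. With the replicate block only the calcium-binding protein S100a11 rose (by 0.85 on the log2 scale, with an adjusted p of 0.0322 in edgeR). The stomach-type markers Cldn18, Muc5ac, Tff1, Gkn1 and Gkn3 were at 0 in at least 1 library. The transcription factors Klf4 and Klf5 had log2 fold changes of 0.07 and -0.45, and the tuft cell marker Dclk1 had 0.22. The median of the 16 was 0.11, beside 0.02 over all tested genes.

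Acinar markers moved both ways beside the keratins. With the block Rbpjl, a subunit of the acinar transcription factor complex, rose, with a control mean of 214 CPM ± 56.8 and a knockout mean of 504 CPM ± 145 (SD, n = 3, edgeR adjusted p 0.00203). Cela2a, Ptf1a and the zymogen granule protein Cuzd1 fell, with means for Cuzd1 of 1509 CPM ± 363 and 570.5 CPM ± 238 (edgeR adjusted p 0.00345). Of the 12 markers 0 were called by the edgeR test without the block, with 1 higher and 5 lower at an unadjusted p under 0.05, and their median log2 fold change was -0.43.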
